A study of Caenorhabditis elegans with 2 samples.

Results

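Weak promoter peaks of the homeodomain protein CEH-2 are the 4981 ChIP-seq peaks described here. They were chosen by 3 criteria: a place on the nuclear chromosomes in the authors' relaxed list from both replicates pooled, no overlap of even 1 bp with the optimal peak set that the authors drew with IDR (irreproducible discovery rate, a measure of how well peak ranks agree between replicates), and a summit in a promoter window. A promoter window covered the 1000 bp before and the 200 bp after any transcript start of a protein-coding gene. The relaxed list held 16046 peaks, of which 16022 were nuclear and 14205 of those were weak, that is, without overlap with the optimal set. Promoter windows held 35.1% of the weak peaks (95% Wilson interval 34.3 to 35.9), and 9224 weak peaks lay elsewhere. For scale, the windows covered 3.78 of 15.1 Mb on chromosome I, 4.40 of 15.3 on II and 3.35 of 13.8 on III. On IV, V and X they covered 4.51 of 17.5, 6.29 of 20.9 and 3.87 of 17.7 Mb. The promoter share was not tested against this cover. The optimal set, called the reproducible peaks here, held 1430 nuclear peaks, of which 896 had their summit in a promoter window. Because the peaks were selected on their place in these lists, their signal and their replicate support against the reproducible peaks are given as descriptions, without a test.

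The chromatin came from whole hermaphrodite late embryos of Caenorhabditis elegans strain OP323, 5 hours after synchronization by egg bleaching. The strain is a transgenic line that stably expresses CEH-2 with a GFP-FLAG tag at its C terminus, and the sonicated chromatin was precipitated with an antibody against GFP. The labels name 1 group of 2 biological replicates. The authors called peaks against a control, which was not analysed here. A whole embryo mixes all tissues, so weak binding in many cells and strong binding in few cells cannot be told apart. The lists hold no read counts, so the depth is unknown. The relaxed list of replicate 1 held 18431 peaks and that of replicate 2 held 15188.

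CEH-2 belongs to the EMX and empty spiracles family of homeodomain proteins, transcription factors that bind short sites built around a TAAT core. In the worm it is known from the pharynx, the feeding organ, where it acts in a motor neuron. Peak callers give IDR a deliberately permissive list, so that real sites and background are both present in it. A weak peak is therefore a region that met the permissive threshold only.

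The peak signal is the authors' caller's own value in units that are not stated. It served mainly to describe, rank and filter the peaks of one list, and 1 ranking took the lower of the 2 replicate values. Since each list has its own scale, pooled values were not compared with those of a replicate. Pooled signals of the weak promoter peaks ran from 28.97 to 86.335, with quartiles of 33.2, 39.01 and 49.8, while the weak peaks elsewhere had a median of 36.7. The reproducible promoter peaks began at 86.337 and reached 1749, with a median of 131.6. The rule therefore amounted to a limit on signal plus the absence of overlap. Just inside it, the strongest weak promoter summit lay in an intron 191 bp upstream of vav-1, with 86.34 in the pooled list, 42.7 in replicate 1 and 45.5 in replicate 2. Just outside it, the weakest reproducible summit lay 140 bp upstream of chmp-7, an ESCRT-family membrane-remodelling gene, with 86.34, 45.3 and 40.4. The next reproducible summits were those of T10D4.6, at 86.47 in the pooled list, and of Y97E10C.1, at 86.55. Members on either side of the limit thus had nearly the same values.

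The sequences at the strongest weak summits are shown first, as examples of the windows searched. The sequence counts given later rest on all windows. The 3 strongest whose sequence within 50 bp touched no annotated exon, on chromosomes II to V or X, were those of miz-1 (chrIV:10821843-10821943), of bed-2, a BED zinc finger gene (chrIII:11466914-11467014), and of ceh-43, a homeobox gene of the Distal-less family (chrIII:4450892-4450992). All sequences are from the RefSeq genome of WBcel235, the assembly also called ce11, forward strand, 5′ to 3′, with the summit in the middle. Capitals mark the cores TAATTA or TAATGA and the repeat GAGAGA on either strand, so that TCATTA and TCTCTC are the reverse forms.
miz-1: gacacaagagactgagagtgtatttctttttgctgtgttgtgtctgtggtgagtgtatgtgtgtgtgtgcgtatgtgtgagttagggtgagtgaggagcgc
bed-2: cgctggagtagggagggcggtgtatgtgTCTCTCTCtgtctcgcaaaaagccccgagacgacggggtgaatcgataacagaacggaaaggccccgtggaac
ceh-43: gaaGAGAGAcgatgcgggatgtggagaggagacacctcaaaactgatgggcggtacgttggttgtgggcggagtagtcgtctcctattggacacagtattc
None of these 3 windows held a core, and those of bed-2 and ceh-43 held the GA repeat. The window of miz-1 held neither motif.

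The 3 strongest weak summits with a core in such a window show what a homeodomain core looked like within these peaks. They were those of Y73F8A.27 (chrIV:15472522-15472622), of cbp-1, which encodes the worm CBP/p300 histone acetyltransferase (chrIII:9766367-9766467), and of gskl-1, a kinase gene related to glycogen synthase kinase (chrII:10946982-10947082).
Y73F8A.27: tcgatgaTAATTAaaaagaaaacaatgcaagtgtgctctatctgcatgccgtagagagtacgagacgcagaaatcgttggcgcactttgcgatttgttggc
cbp-1: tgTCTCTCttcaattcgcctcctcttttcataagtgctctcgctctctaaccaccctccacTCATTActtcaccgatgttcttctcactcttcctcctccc
gskl-1: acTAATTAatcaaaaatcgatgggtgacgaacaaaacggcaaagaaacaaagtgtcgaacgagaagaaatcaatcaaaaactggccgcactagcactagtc
Each held 1 core, and the cbp-1 window held the GA repeat as well. For comparison, the strongest reproducible promoter summits outside exons were those of K12H4.5 (chrIII:8043906-8044006) and M01F1.9 (chrIII:3499985-3500085).
K12H4.5: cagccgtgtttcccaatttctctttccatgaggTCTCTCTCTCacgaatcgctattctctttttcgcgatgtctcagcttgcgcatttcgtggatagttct
M01F1.9: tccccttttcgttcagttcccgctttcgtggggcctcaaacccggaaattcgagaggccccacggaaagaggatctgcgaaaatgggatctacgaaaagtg
Neither held a core, and the first held a GA repeat long enough for 3 overlapping matches.

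The first comparison asked where in the promoter the weak summits lay. They were spread more widely around the transcript start than the reproducible ones and lay downstream of it more often. Summits downstream of the nearest start made up 908 of 4981, or 18.2%, against 44 of 896, or 4.91%, of the reproducible ones. The difference was 13.3 percentage points (95% Newcombe interval 11.4 to 14.97; Fisher's exact test, two-sided, with Benjamini-Hochberg adjustment over 9 tests, adjusted p = 4.07e-28). Without summits in coding exons, a setting chosen after the data were seen, the shares were 10.7% and 4.28% and the difference 6.44 points, and with windows reaching 2000 bp upstream it was 8.55 points. Such p-values are over peaks, which neighbour each other and are not independent, and the spread between replicates is not measured by them. The medians of the distance were alike, 231 bp and 216.5 bp upstream. The quartiles were 523 and 47 bp upstream for weak summits and 379 and 118 bp upstream for reproducible ones. The 300 bp before the start held 39.1% of weak and 60.3% of reproducible summits. In both sets the densest bin of 100 bp was the one from 200 to 100 bp upstream, with 14.3% and 25.3%.

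**Figure D1:**
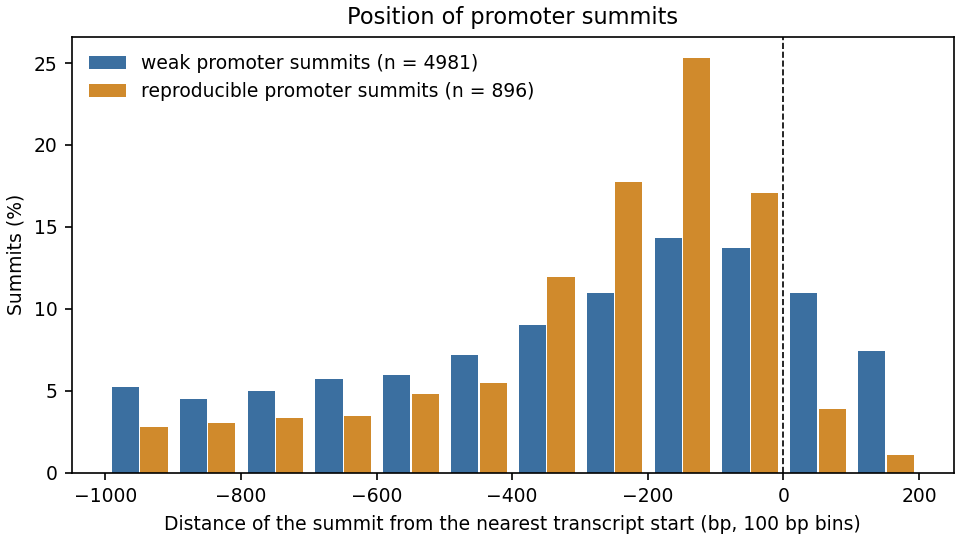
Distance of each promoter summit from the nearest transcript start (horizontal axis, bp, negative upstream, in bins of 100 bp) and the share of summits in each bin (vertical axis, percent) for 4981 weak (blue) and 896 reproducible (orange) summits. Both peak between 200 and 100 bp upstream, at 14.3% and 25.3%, and a larger share of the weak summits lies past the start.

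Inside the windows, the weak summits fell on coding sequence more often. Coding exons held 823 of them, or 16.5%, against 9, or 1.00%, of the reproducible summits, a difference of 15.5 points (14.2 to 16.7, Fisher's exact test, adjusted p = 7.94e-50). Of these 823, 462 lay downstream of the nearest start and 361 lay upstream of it. One of the strongest weak summits was of this kind: it lay in a coding exon 954 bp upstream of the cuticle collagen gene col-142, with 86.1 in the pooled list, 47.9 in replicate 1 and 28.3 in replicate 2. Intergenic sequence held 2616 weak summits, or 52.5%, and 81.8% of the reproducible ones. Introns held 20.4% and 11.4%, and 5′ UTRs 7.03% and 5.02%. The other weak summits lay in 3′ UTRs, 167, or in other exons, 10. Among summits upstream of the nearest start alone, 64.2% of the weak and 86.03% of the reproducible were intergenic.

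Weak summits less often lay in the windows of genes on opposite strands. Windows of genes on both strands held 714 of them, or 14.3%, against 307, or 34.3%, of the reproducible summits, a difference of −19.9 points (−23.2 to −16.7, Fisher's exact test, adjusted p = 1.08e-40). A single gene's window held 4184 of the weak summits, while 750 lay in the windows of 2 genes and 47 in those of 3. Among the strongest, 1 summit lay between ztf-9, a zinc finger gene, and ZK287.7, with 86.2, 37.4 and 51.1 in the pooled list and replicates 1 and 2. Another lay 6 bp upstream of rde-10, an RNA interference gene, and in the window of rnp-6, a splicing factor gene, with 86.1, 42.7 and 43.7. Genes for tRNA, snoRNA or snRNA lay within 300 bp of 92 weak summits, or 1.85%, and of 65 reproducible summits, or 7.25%. This difference was −5.41 points (−7.32 to −3.83, Fisher's exact test, adjusted p = 1.73e-15).

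No difference in the share on the X chromosome was called. The X chromosome held 818 weak summits, or 16.4%, and 145 reproducible ones, or 16.2%, a difference of 0.239 points with an interval of −2.51 to 2.74 (Fisher's exact test, adjusted p = 0.883). Per megabase of promoter window, weak summits were densest on chromosome I, at 253, and sparsest on V, at 134, with 186 on II, 234.7 on III, 168 on IV and 212 on X. The reproducible summits had the same order at both ends, with 48.6 on I and 20.98 on V. The median distance of weak promoter summits from the nearest reproducible peak was 23239 bp, and 136, or 2.73%, lay within 1000 bp of one. Weak peaks elsewhere had a similar median distance, 24118.5 bp, and the rule left out any overlap in both sets.

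The features above changed along the range of weak signal. The 14205 weak peaks were divided into 10 equal bins by pooled signal, and the shares below are of the promoter summits in each bin unless another base is named. The promoter share of all weak peaks was 29.98% in the lowest bin and 48.7% in the highest, and that of the reproducible peaks was 62.7%. Coding exons held 19.5% of promoter summits in the lowest bin and 4.19% in the highest, against 1.00% of the reproducible ones. The coding exon share lay between 18.3% and 23.4% in bins 1 to 6, numbered from the lowest signal, and was lower in each bin after that. Windows on both strands held 9.86% in the lowest and 25.1% in the highest bin, against 34.3%. The downstream share was 19.5% and 13.3%, against 4.91%, and the intergenic share 45.5% and 67.6%, against 81.8%. In each of these features the strongest weak peaks lay nearer to the reproducible set than the weakest did. The bins are descriptions, as the signal that orders them is also what the rule used.

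**Figure D2:**
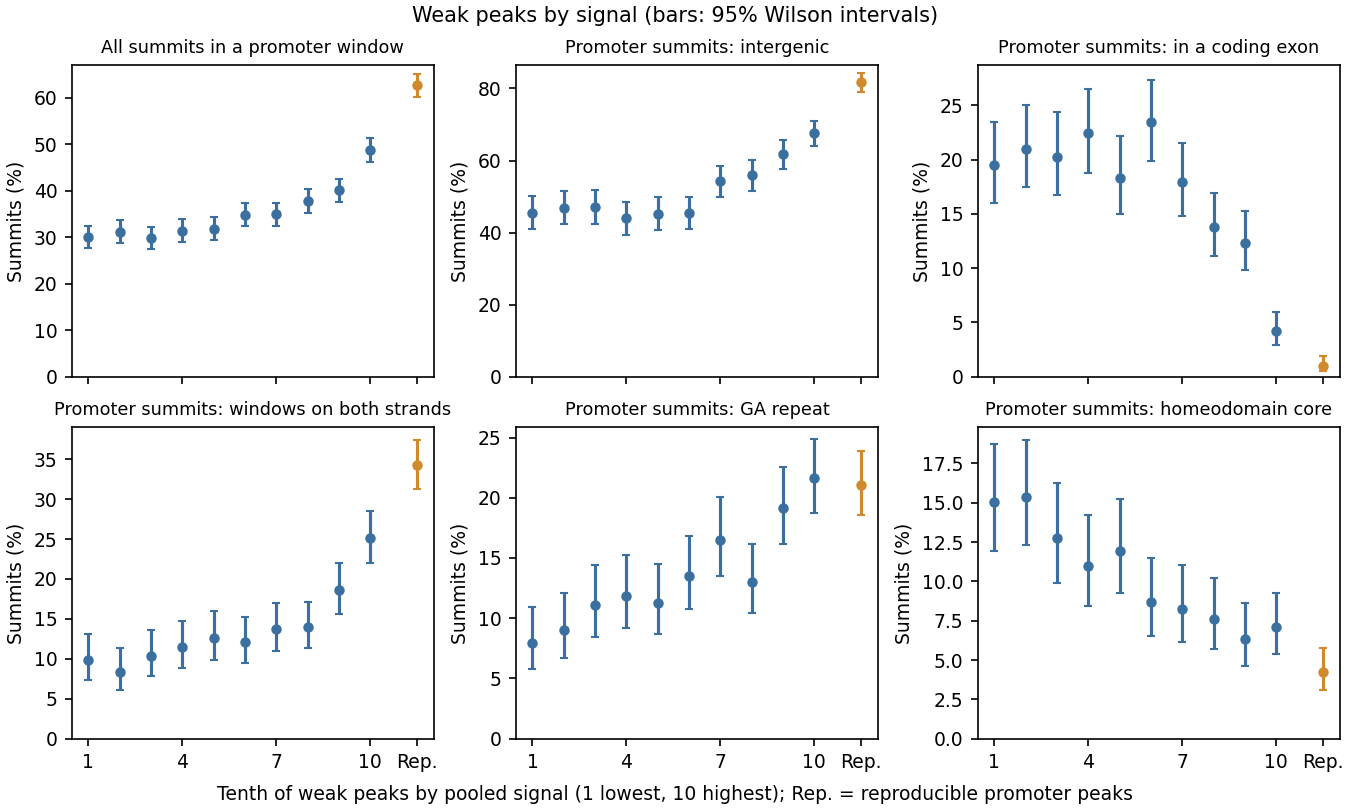
Shares of summits (vertical axes, percent, with 95% Wilson intervals) for 10 bins of the weak peaks by pooled signal (horizontal axes, blue) and for the reproducible peaks (orange, marked Rep.). The promoter share goes from 29.98% to 48.7% and the coding exon share from 19.5% to 4.19% between the lowest and the highest bin.

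The next comparison asked how far each replicate held these peaks. A relaxed peak of both replicates overlapped 2638 of the 4981 weak promoter peaks, or 53.0%. Replicate 1 alone overlapped 1176, or 23.6%, replicate 2 alone 938, or 18.8%, and neither 229, or 4.597%. Of the 896 reproducible promoter peaks, 895 were held by both. Weak peaks outside promoters were held by both replicates less often, 4053 of 9224, or 43.9%, a difference of 9.02 points (7.30 to 10.7, Fisher's exact test, adjusted p = 2.41e-24). Promoter peaks also had higher pooled signal, and the odds ratio of 1.44 became 1.15 within 10 bins of pooled signal (Mantel-Haenszel 95% interval 1.05 to 1.25, a setting chosen after the data were seen). Among weak peaks at or above the median signal the difference was 4.46 points.

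Support by both replicates went with signal: it was 15.7% of promoter summits in the lowest bin and 98.8% in the highest. The median pooled signal was 47.8 for the peaks held by both, 34.8 for replicate 1 alone, 34.3 for replicate 2 alone and 30.8 for neither. Coding exons held 13.3% of the summits held by both, 20.3% of those in replicate 1 alone, 19.1% of those in replicate 2 alone and 23.1% of those in neither. Replicate summits lay close to the pooled summit less often than at reproducible peaks. Both replicates had a summit within 100 bp of the pooled one at 33.8% of the weak and 95.98% of the reproducible promoter peaks. These shares are of all peaks, including weak peaks that 1 or both replicates did not overlap. The rank correlation of the 2 replicates' signals was 0.289 over the 2638 weak peaks and 0.761 over the 895 reproducible ones, each across peaks that share both libraries and that were limited to a different range of signal. Neighbouring weak summits could overlap the same replicate peak: 758 shared their replicate 1 value and 743 their replicate 2 value with another weak promoter summit.

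**Figure D3:**
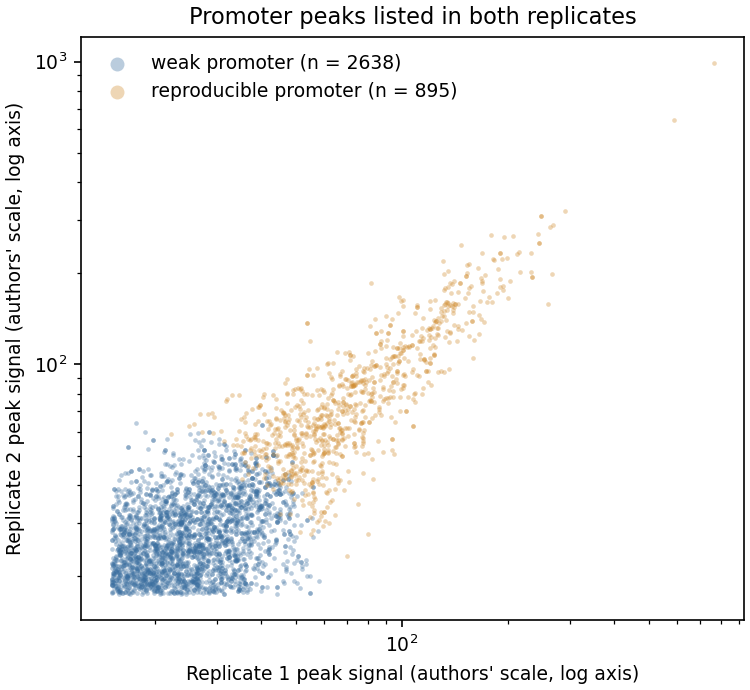
Signal of the overlapping replicate 1 peak (horizontal axis, authors' scale, log axis) and replicate 2 peak (vertical axis, same kind of scale, log axis) for 2638 weak (blue) and 895 reproducible (orange) promoter peaks held by both. The weak peaks form a broad cloud at low signal and the reproducible ones a narrower band that reaches 764 and 988.

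Some weak promoter peaks had, for this set, high values in both replicates. Over all weak promoter peaks, replicate 1 values ran from 15.04 to 58.2 and replicate 2 values from 17.5 to 64.3. The peaks were ranked by the lower of the 2 replicate signals as listed, although the scales of the 2 lists can differ. The first places went to a pair of summits 816 and 608 bp upstream of cebp-1, a C/EBP-family transcription factor gene of stress responses and axon regrowth. Both overlapped the same replicate peaks, of 48.8 and 47.5, but had 31.6 and 81.5 in the pooled list. The summit 150 bp upstream of arp-1, for an actin-related protein of dynactin, had 83.3 in the pooled list, 43.9 in replicate 1 and 49.7 in replicate 2. That of Y59C2A.3 had 80.6, 46.5 and 43.5. A summit in a 5′ UTR, 521 bp upstream of a start of smrd-1, had 45.8, 43.2 and 51.8. It tied with a neighbouring weak summit on the same replicate peaks, 8 bp upstream of a start of enu-3.1 and also in a window of smrd-1, which had 84.2 in the pooled list. The replicate values of the other strongest weak peaks are given as listed, since the lists of the replicates can differ in scale. The summit of M153.3 had 28.4 in replicate 1 and 59.7 in replicate 2, and that of lgl-1, a cell polarity gene, had 50.5 and 36.8 at a pooled signal of 86.2. The remaining summit of the 10 strongest was that of atgp-1, with 85.9, 47.0 and 39.3. Of those shown by sequence, miz-1 had 43.2 and 50.2 in the replicates, bed-2 35.9 and 52.2, and ceh-43 47.8 and 43.2.

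The fourth comparison asked which genes had these peaks. Of 19973 protein-coding genes, 4795, or 24.0%, had a weak summit in a promoter window, and 4669, or 23.4%, had a weak and no reproducible one. A reproducible summit was present in 1189, or 5.95%. Only 126 genes had both. A weak summit was present in 10.6% of the genes with a reproducible one and in 24.9% of the others, and the rule itself lowers the first share, since 208 further relaxed peaks in promoter windows were left out for overlapping a reproducible peak. Most genes with a weak summit had 1, in 3937 cases, while 725 had 2, 102 had 3, 25 had 4, 5 had 5 and 1 had 7.

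Of the genes with the most weak summits, 8 are named, and these 8 had between 2 and 15 transcript starts. The cell polarity kinase gene par-1 had 7, spread over a gene with 11 starts, with pooled signals from 32.7 to 45.5. Of these 7, 2 were held by both replicates, and these shared the same replicate peaks, with 20.9 and 22.01. Then came kin-1, the catalytic subunit of protein kinase A, with 5 summits and 12 starts. Its strongest summit had 85.4 in the pooled list, 41.6 in replicate 1 and 44.6 in replicate 2, and its weakest had 31.1 and no peak in replicate 1. F28E10.1 had 5, as did gap-2, a Ras GTPase-activating protein gene with 15 starts, hrpu-1, an hnRNP U homologue, and tln-1, for talin. The highest summits in these had 73.7, 71.5, 46.7 and 39.9. A further 25 genes had 4 each, and the 2 of them with the highest weak signal were the cohesin release gene wapl-1 and the neuronal adhesion gene sax-7, with highest summits of 84.9 and 82.4. The strongest wapl-1 summit was shared with htz-1, the gene of the histone variant H2A.Z. Such a count follows the number of starts and the splitting of a peak as well as the number of bound sites, and these were not separated.

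**Figure D4:**
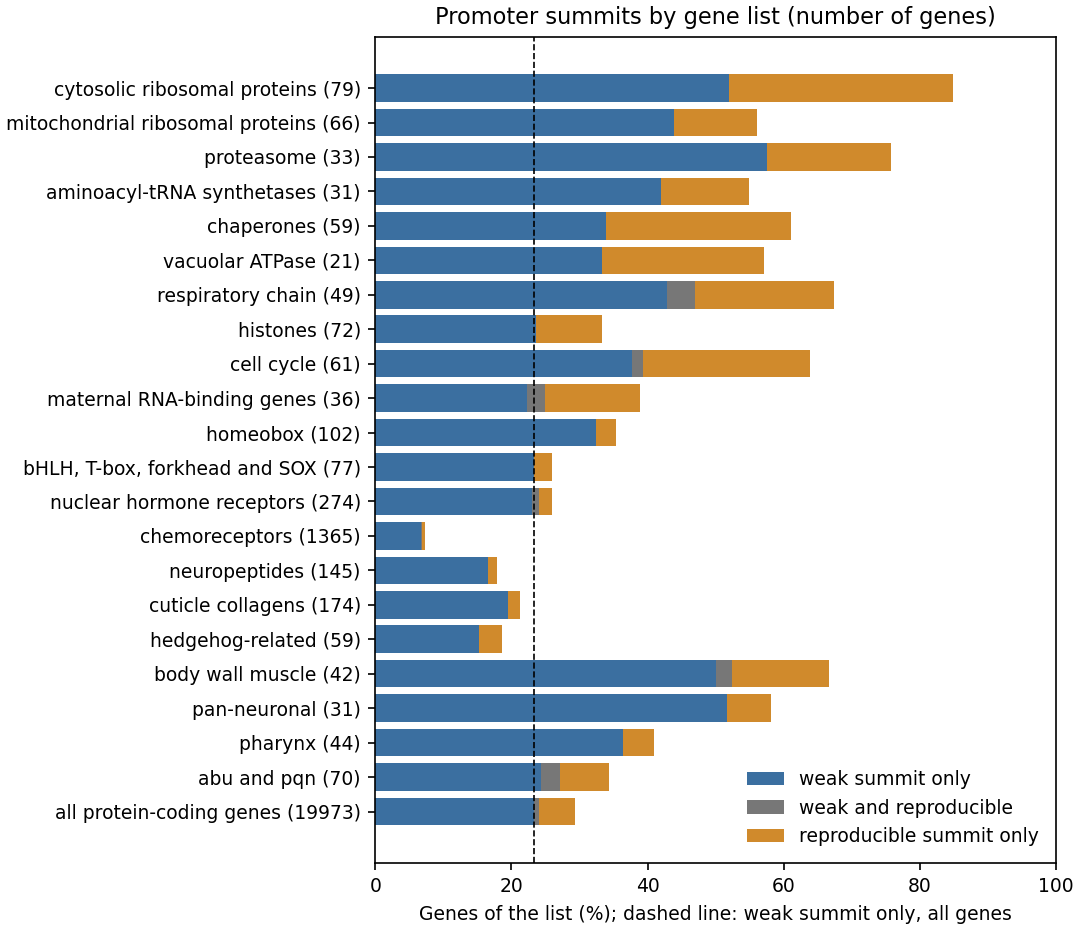
Share of the genes of each list (horizontal axis, percent; number of genes in brackets) with only a weak (blue), a weak and a reproducible (grey) or only a reproducible promoter summit (orange). The dashed line marks the 23.4% of all protein-coding genes with only a weak summit; cytosolic ribosomal protein genes reach 84.8% in all and chemoreceptor genes 7.33%.

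Gene lists were made from gene symbols, with earlier results of these data known, so their counts are given beside those of all genes and without a test. A gene with more transcript starts can have more window for a summit to fall in, and the shares were not adjusted for this. All 7 lists of protein and energy metabolism lay above the background of all genes, though the 95% Wilson intervals of the chaperone list (23.1 to 46.6) and the vacuolar ATPase list (17.2 to 54.6) include it. Weak summits were present at 41 of 79 cytosolic ribosomal protein genes, or 51.9% (41.1 to 62.6) against 24.0% of all genes, and 26 others had a reproducible summit, so that 84.8% had either kind against 29.3% of all genes. Their strongest weak summits were those of rpl-7, shared with the recycling endosome gene rab-11.1 (pooled 83.7, replicate 1 36.6, replicate 2 44.5), of rps-3 (80.3, 49.2 and 34.7) and of rpl-9 (79.0, 21.6 and 56.6). The rps-3 and rpl-9 summits were shared with sna-3 and lpd-7, in that order, and lay nearer to those genes. The best weak summit of a ribosomal protein gene, that with the highest pooled signal, had a median pooled signal of 58.1, against 41.2 over all genes with a weak summit. It was held by both replicates in 32 of 41 genes, or 78.05%, against 54.6% over all genes.

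Other parts of the protein and energy machinery had weak summits in 33.3% to 57.6% of their genes, beside 24.0% of all genes. Proteasome genes had a weak summit in 19 of 33, or 57.6%, and a reproducible one in 6. Examples were rpn-5, of the regulatory lid, whose summit 63 bp downstream of the start was shared with the cohesin gene scc-1 and had 80.3, 47.6 and 26.5, and the 20S subunit gene pas-4, with 77.0, 28.3 and 45.8. Another was rpn-11, the lid deubiquitinase, with 73.2, 31.98 and 42.3. Mitochondrial ribosomal protein genes had a weak summit in 29 of 66, or 43.9%, led by mrpl-39 (82.8), mrps-7 (79.8) and mrpl-12 (79.7). Respiratory chain genes had one in 23 of 49, or 46.9%, led by ucr-2.1 of complex III (79.8), mev-1 of complex II (76.8) and nduf-11 of complex I (72.2). Aminoacyl-tRNA synthetase genes had one in 13 of 31, or 41.9%. The summit of lars-1, for leucine, was held by replicate 2 alone, with 54.6 there, 67.5 in the pooled list and no overlapping peak in replicate 1, while aars-1 and aars-2, for alanine, were held by both at pooled signals of 64.4 and 62.1. Chaperone genes had one in 20 of 59, or 33.9%, with the chaperonin genes cct-1 (71.3) and cct-8 (64.9) and the DnaJ gene dnj-1 (57.8). Vacuolar ATPase genes had one in 7 of 21, or 33.3%, led by vha-19 (74.96), vha-1 (74.0) and vha-15 (51.6). In this paragraph, the summits of mrpl-12, ucr-2.1, mev-1, cct-1 and cct-8 lay nearer to Y39A1A.22, nmat-1, jmjd-4, mig-5 and Y55F3AR.2, in that order.

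Lists tied to cell division and the early embryo lay between 23.6% and 39.3%, beside 24.0% of all genes. The Wilson intervals of the histone genes (15.3 to 34.6) and the maternal RNA-binding genes (13.8 to 41.1) include the share of all genes. The interval of the cell cycle genes (28.1 to 51.9) lies above it. Cell cycle genes had a weak summit in 24 of 61, or 39.3%, including zen-4 (80.8) and cyk-4 (75.5), the kinesin and the GTPase-activating protein of the complex that builds the central spindle, and the phosphatase gene cdc-14 (73.9). A tRNA, snoRNA or snRNA gene lay within 300 bp of the zen-4 summit. The cyk-4 summit lay nearer to pdr-1. Histone genes had one in 17 of 72, or 23.6%, led by the linker histone gene his-24 (76.8) and by the summit between his-3 and his-4 (70.7). Near-identical histone genes can share reads, so the histone counts are uncertain. Maternal RNA-binding genes had one in 9 of 36, or 25%, among them the RNA helicase gene cgh-1 (75.1), mex-3 (66.3) and car-1 (66.0).

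Lists of developmental regulators had weak summits in 23.4% to 32.4% of their genes, beside 24.0% of all genes. Homeobox genes had a weak summit in 33 of 102, or 32.4%, and a reproducible one in 3, or 2.94% (1.01 to 8.29) beside 5.95% of all genes. Besides ceh-43 they included lim-8 of the LIM class, with 76.7, 45.1 and 32.6, near a tRNA, snoRNA or snRNA gene, and ceh-22, a regulator of pharyngeal muscle, with 66.6, 28.6 and 38.5. The best weak summit of a homeobox gene had a median of 37.6, and 15 of 33 were held by both replicates. The list of SOX, forkhead, T-box and bHLH genes had one in 18 of 77, or 23.4%, with hlh-11 (73.1), tbx-2 (65.7) and the FoxF gene let-381 (63.4). Nuclear hormone receptor genes had one in 66 of 274, or 24.1%, with nhr-41 (80.1), nhr-59 (79.0) and the moulting regulator nhr-25 (71.6). The nhr-59 summit lay nearer to fbxa-137, and the nhr-41 summit was near a tRNA, snoRNA or snRNA gene. Between 2.60% and 2.94% of the genes of these 3 lists had a reproducible summit.

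Genes of differentiated tissues were divided. Body wall muscle genes had a weak summit in 22 of 42, or 52.4%, including unc-52, for the matrix protein perlecan (85.6, 28.7 and 55.4), unc-54, for the major myosin heavy chain (74.4, 43.7 and 25.5), and the immunoglobulin-domain gene dim-1 (73.6, 38.9 and 32.4). Pan-neuronal genes had one in 16 of 31, or 51.6%, and 13 of these 16 had their best summit in both replicates. They included ric-19 of dense-core vesicles (70.1, 34.5 and 34.4), the kinesin heavy chain gene unc-116 (66.6, 33.1 and 35.8) and the synaptobrevin gene snb-1 (52.5, 16.2 and 32.9). The list for the pharynx had 16 of 44, or 36.4%, with a weak and 2 with a reproducible summit. The 95% Wilson intervals of this list (23.8 to 51.1) and of the abu and pqn genes (18.1 to 38.5) include the share of all genes. The leaders of the pharynx list were the glutamate receptor gene glr-8, whose summit was shared with cdf-1 (68.3), ceh-22 and tbx-2. The abu and pqn genes had one in 19 of 70, or 27.1%, led by pqn-51 (83.2), pqn-13 (81.8) and pqn-53 (73.9).

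Other tissue lists had shares below the 24.0% of all genes, though the 95% Wilson intervals of the cuticle collagens (14.3 to 26.1) and the hedgehog-related genes (8.24 to 26.5) include it. Chemoreceptor genes, most of them active in a few sensory neurons, had a weak summit in 93 of 1365, or 6.81%, and 8 had a reproducible one. Their best weak summits had a median of 34.4, and 31 of 93 were held by both replicates. The leaders were str-12, whose summit was shared with fbxa-153 (82.4), srh-33 (78.2) and srh-34 (62.1). Neuropeptide genes had one in 24 of 145, or 16.6%, led by the insulin-like gene daf-28, whose summit lay in a coding exon (58.8), nlp-4 (54.9) and nlp-25 (48.3). Cuticle collagen genes had one in 34 of 174, or 19.5%, with col-38 (72.1, a summit nearer to the ribosomal protein gene rpl-5) and col-47 (60.2) after col-142. Hedgehog-related genes had one in 9 of 59, or 15.3%, led by grl-16 (53.0), wrt-1 (52.6) and grl-11 (46.6, a summit nearer to ced-11). The best summits of that list were held by both replicates in 2 of 9 genes. The tagged gene ceh-2 had 0 weak promoter summits. The neuronal gene unc-119, a marker in many worm transgenes, had 2. One had 48.7 in the pooled list, 35.5 in replicate 1 and 17.7 in replicate 2, and the other had 32.3, no peak in replicate 1 and 19.7 in replicate 2.

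The last comparison asked which sequences lay under the weak summits. Windows reaching 50 bp to either side of weak promoter summits had a median GC content of 42.6%, against 35.6% in windows 300 bp to either side and 49.5% at reproducible promoter summits. GC content went with signal, from 38.6% in the lowest to 47.5% in the highest bin. The homeodomain core TAATTA or TAATGA, searched on both strands, was present in 499 windows, or 10.02%. In the summits' own flanks it was present in 10.7%, a difference of −0.723 points (exact McNemar test, the larger p of both flanks, adjusted p = 0.388). No difference from the surroundings was called over all weak promoter summits. On the list of replicate 1 alone the difference was −1.32 points (exact McNemar test, adjusted p = 0.0398), and on that of replicate 2 alone 0.687 points (exact McNemar test, adjusted p = 0.693). Among weak peaks at or above the median signal the difference was −3.60 points (adjusted p = 9.90e-05), and among those held by both replicates −2.65 points (exact McNemar test, adjusted p = 0.0097).

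Reproducible summits held the core in 38 of 896 windows, or 4.24%, so the weak summits had it more often, by 5.78 points (4.05 to 7.205, Fisher's exact test, adjusted p = 3.68e-09). The reproducible summits also had it less often than their own flanks. TAATTA was at 2.68% of reproducible summits and 5.92% of their flanks, and TAATGA at 1.67% and 5.36%. At weak summits and their flanks these shares were 4.94% and 5.43%, and 5.48% and 5.73%. The difference between reproducible summits and their flanks was not tested. The core itself is mostly A and T, and GC content differed between the sets. Within steps of 5 percentage points of GC content the odds ratio was 1.34 (Mantel-Haenszel 95% interval 0.940 to 1.90, which includes 1), against 2.51 without steps. By bin of signal the share with a core was 15.02% at the low and 7.08% at the high end. Among weak peaks at or above the median signal the difference from reproducible summits was 3.29 points. The GA repeat GAGAGA, searched on both strands, was present at 703 weak summits, or 14.1%, and at 189 reproducible ones, or 21.1%, a difference of −6.98 points (−9.93 to −4.25, Fisher's exact test, adjusted p = 2.93e-07). Within steps of GC content its odds ratio was 0.849 (0.706 to 1.02, which includes 1), against 0.615 without. The difference was −3.95 points for weak peaks at or above the median signal and −4.49 points for those held by both replicates. In the highest bin of weak signal 21.7% of promoter summits held the repeat, and in the lowest 7.98%.

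A scan of all words of 6 bases, both strands merged, compared summits with their flanks. It called 451 words, or 21.7%, higher and 271, or 13.0%, lower at weak summits (exact McNemar tests, Benjamini-Hochberg adjusted over all words, threshold 0.05). Of the words called higher, 373, or 82.7%, had 4 or more G or C bases, and of those called lower, 257, or 94.8%, had 2 or fewer. Each of these classes holds 720 words, or 34.6% of all words, so the calls went with base composition. On the list of replicate 2 alone 380 words were called, against 722 here. Among words in 1% or more of summits, ACGCGC had the highest ratio, at 5.64% of weak summits and 1.70% of flanks (exact McNemar test, adjusted p = 6.68e-22), and it was at 14.7% of reproducible summits. It was followed by CGCGCG, at 3.09% and 0.944%, and GCGCAC, at 5.54% and 1.81%. The GA repeat GAGAGA was called as well, at 14.1% of summits and 6.79% of flanks (exact McNemar test, adjusted p = 3.98e-25). Among the words called lower, with no minimum share, the lowest ratio was that of GTTAAC, at 0.743% of summits and 1.43% of flanks. It was followed by AAGTTA, at 4.08% and 7.33%, and by ATCTAG, at 1.73% and 2.95%. The word TAATTA was at 4.94% of summits and 5.43% of flanks, and TAATGA at 5.48% and 5.73%, and neither was called. The same ratios were taken at reproducible summits, where 48.99% of all words had a ratio above 1 and 49.9% one below 1. Of all words with 4 or more G or C bases, 86.25% had a ratio above 1 there, and of those with 2 or fewer, 88.2% had one below 1. Of the 451 words higher at weak summits, 439 had a ratio above 1 at reproducible summits, and the median ratio of these 451 words was 1.70 at weak and 2.60 at reproducible summits. Of the 271 words called lower, 268 had a ratio below 1 at reproducible summits, with medians of 0.732 and 0.526.

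**Figure D5:**
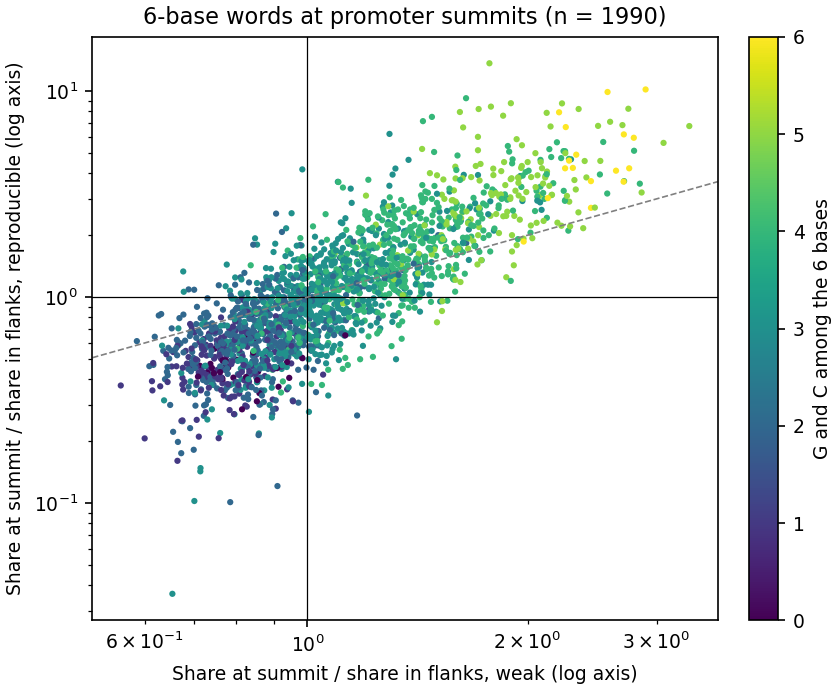
Ratio of the share of windows with a word of 6 bases at the summit to the share in the flanks for weak (horizontal axis, log) and reproducible (vertical axis, log) promoter summits, over the 1990 words in 1% or more of the flank windows of both sets, coloured by their number of G and C bases. Words rich in G and C lie mostly above 1 and words rich in A and T mostly below 1 on both axes (dashed line: equal ratios), and the words called higher have a median ratio of 1.70 at weak and 2.60 at reproducible summits.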

How the data were processed

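ChIP-seq of CEH-2-GFP was analysed from peak lists of 2 biological replicates in 1 group. Per the file headers, the authors called relaxed lists on each replicate and on both together, each against a control, and derived the optimal IDR set from them. The deposited signal is the authors' caller's value per peak, and the deposited −log10 q-value was not used for ranking or tests. Its range overlapped between the sets, up to 2.67 at weak and from 2.31 at reproducible promoter peaks. Not given in the sources used here are the aligner, the caller, its filters and the limit on IDR. With no read counts, intervals cover only counting error of peaks. Lists on the older build ce10 were not used.

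Transcripts were those of Ensembl release 115 (WBcel235), the sequence was from RefSeq, and positions are 1-based. A summit was in every gene whose window held it. The distance is to the nearest start whose window held the summit. Features used protein-coding genes. A replicate held a peak that it overlapped by 1 bp, with the signal of the strongest overlapping peak. Shares were compared by Fisher's exact tests, two-sided, with Newcombe intervals or, against flanks 300 bp away, by exact McNemar tests, and p-values were adjusted by Benjamini-Hochberg over 9 tests. The tests were tried on simulated data with independent counts and windows. That trial cannot show how the tests behave on neighbouring peaks, which are not independent.

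The members and gene lists were chosen with earlier results of these data known. Named genes are those of the 10 strongest weak promoter summits and the 3 weakest reproducible ones, the 8 genes with most weak summits, up to 3 members per list with the strongest weak and no reproducible summit, the 5 weak summits with the highest lower replicate signal, ceh-2 and unc-119. The cbp-1, gskl-1, Y73F8A.27, K12H4.5 and M01F1.9 summits were named by the rule for sequences. Alternatives were windows of 500 and 2000 bp, subsets by signal, replicate support, noncoding loci, clustering within 500 bp and distance from reproducible peaks, each replicate alone, sequence within 100 bp, and GC steps. Leaving out coding-exon summits and the odds ratio within bins of signal were added after the data were seen. The software was scipy 1.17.1 and statsmodels 0.14.6 for tests, pandas 2.3.3 with numpy 2.4.6 for tables, and matplotlib 3.10.9 for figures, under Python 3.11.15.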

Additional observations from a re-analysis of the deposited data

Results flagged for a closer look

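The pooled list also holds peaks outside the weak and reproducible sets: 387 relaxed nuclear peaks overlapped a reproducible peak without being in that set. Of these, 208, or 53.7%, had their summit in a promoter window, and their pooled signals ran from 29.0 to 85.5 with a median of 45.3. Since a relaxed list is permissive, a count of 0 was no expectation, and no control samples were analysed for this count. Its cause was not tested.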

How the results depend on the processing

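Of 139 values recomputed under another setting, 117 kept sign and call or stayed within their limits. The shares downstream, in coding exons, in windows on both strands and near tRNA, snoRNA or snRNA genes kept direction and call under every alternative run for them. With each replicate's list alone, the downstream difference was 10.6 to 10.8 points, the coding exon difference 13.3 to 14.0, the both-strand difference −19.9 to −19.4, the noncoding gene difference −5.79 to −5.56, the core difference 4.10 to 4.53 and the GA repeat difference −6.51 to −6.45. The same lists gave 4659 to 5473 weak promoter summits, 4425 to 4938 genes, a median GC content of 39.6% to 41.6% and 380 to 614 called words, against 722. They gave an X chromosome difference of −0.598 to 0.858 points and a core difference from the flanks of −1.32 (adjusted p = 0.0398) to 0.687 points (exact McNemar tests, adjusted p = 0.693), so both changed sign. The X difference was −0.244 with windows of 2000 bp. Within GC steps the calls for the core (odds ratio 1.34) and the GA repeat (0.849) were lost. The core difference from the flanks was called at −3.60 points for weak peaks at or above the median signal and −2.65 for those held by both replicates. These 2 subsets hold 2789 and 2638 summits and 2907 and 2588 genes by construction, with a median GC content of 44.6% in each. Support by both replicates, 53.0%, was 54.97% with windows of 500 bp, 51.1% with 2000 bp, 75.8% at or above the median signal, 50.4% with 1 summit per cluster, 33.8% with summits within 100 bp and 54.98% without coding exons. The causes were not tested. Support could not be recomputed on peaks held by both or on 1 replicate, nor could the noncoding and coding exon shares without those summits. No paired analysis was possible because there is only 1 group. Unknown depth limits what the absence of a replicate peak means.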
